A study of Mus musculus with 15 samples.

Results

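The genes of the cytosolic ribosome were followed in mouse hearts that lost MAT1, and 34 of the 8251 genes measured belonged to this group. They were taken from the platform annotation as every probe set with a single gene symbol that starts with Rpl or Rps and a digit, or that is Rplp0, Rplp1, Rplp2 or Rpsa. Rps6k kinase genes and pseudogenes were left out, and so was Rps4l, with 2 probe sets, which RefSeq lists as a pseudogene. Each gene was represented by its probe set with the highest mean, out of 47 that qualified. The 34 genes comprise 15 of the large subunit, 16 of the small subunit and 3 related copies (Rpl7l1, Rpl39l and Rps27l) that are not standard subunits. A further 33 ribosomal protein genes were reached only by probe sets annotated to several symbols and are not named here. Rplp1, Rplp2, Rpl3, Rpl5, Rpl10, Rpl11, Rps2, Rps6 and Rps27a had no probe set that the rule could use.

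Each of 15 one-colour arrays measured total RNA of a heart sample. The knockout (CKO) hearts, αMHC-Cre+/0; MAT1F/F, were sampled at 4 weeks (5 arrays) and 2 weeks (4 arrays). The control hearts came from αMHC-Cre+/0; MAT1F/+ littermates at 4 weeks (3 arrays) and 2 weeks (3 arrays). All 4 groups therefore carried the Cre transgene, and the controls kept 1 wild-type allele. The αMHC promoter drives Cre in heart muscle cells, so fibroblasts, vessels and other cells of the CKO heart keep the gene. Whether each array had a mouse of its own is not in the labels, so the p-values may measure only technical spread.

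Ribosomal proteins clothe and position the ribosomal RNAs: the small subunit holds the mRNA and decodes it, and the large subunit joins amino acids and releases the chain through an exit tunnel. Their mRNAs are among the most abundant of a cell and carry a terminal oligopyrimidine start, through which mTOR and LARP1 control their translation. In the growing heart they supply the ribosomes for muscle growth. MAT1, the product of Mnat1, holds CDK7 and cyclin H together in the kinase of TFIIH, which phosphorylates RNA polymerase II. RNA polymerase II transcribes the ribosomal protein genes.

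The arrays fell into 2 sets that the labels do not mention. Over all probe sets, arrays of the same set correlated at 0.937 or above and arrays of different sets at 0.924 or below. Set 1 held 6 arrays (CKO 1 and 2 and control 1 at 4 weeks, CKO 3 and 4 and control 3 at 2 weeks), and set 2 held the other 9, so each group spans both sets. Heart muscle markers were present on every array, 11 of 11 measured ones with median intensities of 2383 or more. Of the 2 Mnat1 probe sets, the dimmer had a median of 67.6 in CKO hearts at 4 weeks and 74.3 in controls. The brighter went the other way, with a median of 149.4 in CKO hearts and 106.3 in controls, too dim to enter the test. In a fit to all genes its difference was 0.53 ± 0.47 (limma adjusted p = 0.678), and 0.45 ± 0.15 with the block described below (limma adjusted p = 0.0321). Whether these probes lie in the deleted part is not stated, so they do not check the labels.

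The ribosomal protein genes differed between the 2 array sets. Of the 25 members that were bright enough to test, 20 (80%) were lower in set 1 than in set 2, against 49.9% of all genes tested. In 17 of the 25 (68.0%) the 2 sets did not overlap at all, against 36.1% of all genes tested. The median difference, set 1 minus set 2, was -0.50 on the log2 scale for the members and 0.00 for all genes tested. Array medians over all probe sets were higher in set 1 (199.55 to 216.8) than in set 2 (173.72 to 190.88). Rpl10a, the subunit of the mobile L1 stalk that guides spent tRNA out, had intensities of 881 to 1174 in set 1 and 2050 to 2896 in set 2. Rpl37a, a zinc-binding large-subunit protein, ran from 2253 to 2701 in set 1 and from 3623 to 4552 in set 2. Rps13 and Rps27 went the other way: Rps13 had 2194 to 2706 in set 1 and 1321 to 2178 in set 2. Rps24 (difference -0.01) and Rps28 (0.06) hardly moved with the set. The median within-group SD of the members was 0.34 on the log2 scale, and 0.09 once the set entered the model, against 0.32 and 0.17 for all genes tested. Each comparison below is therefore given without the set, then with the set as a block.

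**Figure D1:**
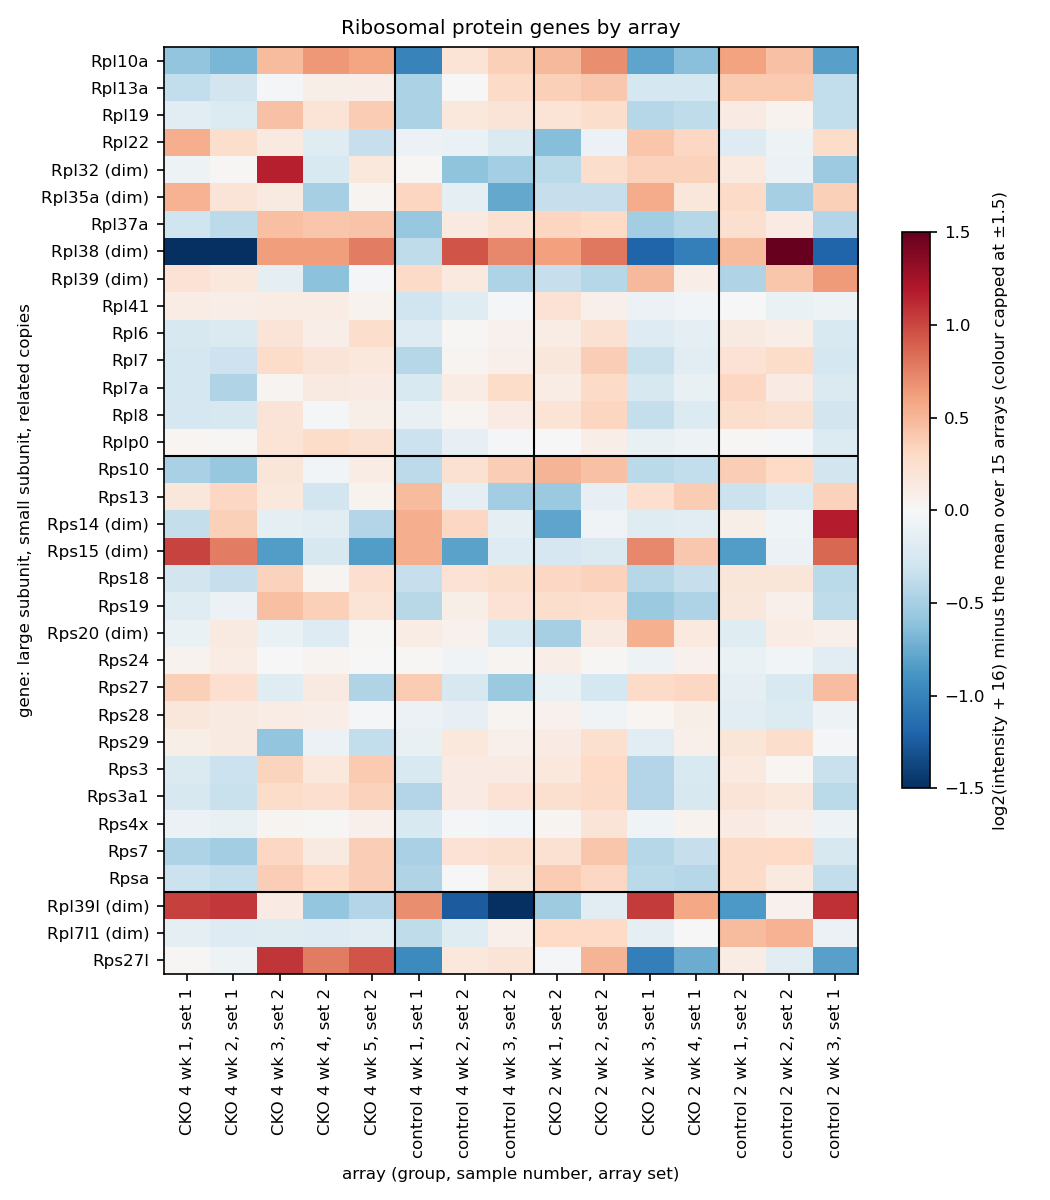
Heat map of the 34 ribosomal protein genes (rows) on the 15 arrays (columns, by group, with the array set in the label). Colour gives log2(intensity + 16) minus the gene's mean over all arrays. Most rows are blue in set 1 and red in set 2, while Rps13, Rps27 and Rpl22 and the dim Rpl39l, Rps15, Rpl35a and Rpl39 run the other way.

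At 4 weeks, 2 of the 25 tested members rose in CKO hearts and none fell. They were Rplp0 and Rpl41, both of the large subunit. With the arrays scaled to 1 median neither passed, at 0.23 for Rplp0 (limma adjusted p = 0.546) and 0.18 for Rpl41 (limma adjusted p = 0.582), and the member median was 0.03. These 2 are 8% of the members, while 11.2% of all 4950 genes tested were called at limma's adjusted p under 0.05 (6.59% higher and 4.61% lower), so the share is near the background. Their median difference was 0.12 on the log2 scale, against 0.09 for all genes tested, and 18 of 25 differences were above 0. With the array set as a block, 9 members passed in the upward direction and none downward. These 9 are 36% of the members, against a background of 35.5% (23.2% higher and 12.2% lower), again near the background in total. The member median with the block was 0.13 and that of all genes 0.08. Sex, inferred from Xist and Uty, was unbalanced at 4 weeks, with 4 female and 1 male CKO hearts and 1 female and 2 male control hearts. With array set and sex as blocks, 7 members rose and none fell, in a fit that called 31.6% of all genes tested.

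Rplp0 encodes the base of the ribosomal stalk, which binds the P1 and P2 proteins and recruits the elongation factors. Its intensities in CKO hearts at 4 weeks were 5835, 5775, 6569, 6928 and 6682, against 4544, 5250 and 5606 in controls. Every CKO array lay above every control array. The difference was 0.31 ± 0.09 on the log2 scale (SE), a fold of 1.24 (limma adjusted p = 0.031). With the block it was 0.32 ± 0.04 (limma adjusted p = 3.99e-05), 0.35 within set 1 and 0.31 within set 2. The call without the block was lost in 5 of the 15 fits that left out 1 array (CKO 3, 4 or 5 or control 1 or 2 of 4 weeks; limma adjusted p up to 0.139). With the block it was kept in all 15.

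Rpl41 encodes a very short basic peptide that lies at the bridge between the subunits. It had 7324, 7270, 7338, 7315 and 7036 in CKO hearts at 4 weeks, against 5521, 5947 and 6697 in controls. The groups did not overlap, and the control arrays were spread more widely than the CKO arrays. The difference was 0.27 ± 0.07 (limma adjusted p = 0.027), and 0.27 ± 0.06 with the block (limma adjusted p = 0.00211), with 0.40 within set 1 and 0.20 within set 2. Without the block, the call was lost in 4 of the 15 fits that left out an array, namely CKO 3 or 4 or control 1 or 2 of 4 weeks. The probe set of Rpl41 carries the suffix by which the maker marks probes shared with similar sequences, so its signal may include related transcripts. Rplp0 and Rpl41 were the only tested members whose 2 groups did not overlap, 2 of 25, while 17.4% of all genes tested did not overlap.

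Among the other large-subunit genes, Rpl10a, Rpl37a and Rpl19 passed the test with the block only. Rpl10a had 1174, 1100, 2471, 2797 and 2689 in CKO hearts at 4 weeks, against 881, 2050 and 2277 in controls. The groups overlapped as a whole, and within each array set every CKO array lay above every control array. Its difference was 0.24 ± 0.48 without the block (limma adjusted p = 0.869) and 0.32 ± 0.08 with it (limma adjusted p = 0.00405). A dimmer probe set of Rpl10a gave 0.24 ± 0.12 with the block, with a limma adjusted p of 0.161 over all probe sets. Rpl37a had 2701, 2539, 4552, 4464 and 4513 in CKO hearts, against 2253, 3664 and 3917 in controls. Within both sets the CKO arrays were above the controls, with a blocked difference of 0.24 ± 0.06 (limma adjusted p = 0.00334) and an unblocked one of 0.19 ± 0.28. Rpl19, whose long helix reaches across to the small subunit, had 2919, 2839, 4431, 3771 and 4239 in CKO hearts, against 2336, 3640 and 3747 in controls. Its blocked difference was 0.21 ± 0.06 (limma adjusted p = 0.0134), lost without control 1 of 4 weeks (limma adjusted p = 0.0806). A dimmer probe set of Rpl19 gave -0.18 ± 0.21 with the block. Within array set 1 a single control array stands against 2 CKO arrays, and 86.3% of all genes tested did not overlap there, against 50.4% in set 2.

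The remaining large-subunit genes did not pass with or without the block. Rpl7 and Rpl6 had blocked differences of 0.15 ± 0.06 (limma adjusted p = 0.0507) and 0.08 ± 0.06. Rpl22, an RNA-binding large-subunit protein that most cells can do without, had 0.19 ± 0.15. A dimmer probe set of Rpl22 gave a blocked difference of -0.49 ± 0.13, with a limma adjusted p of 0.013 over all probe sets, so its probe sets disagree. Rpl13a, a subunit that in human cells can leave the ribosome to silence inflammatory mRNAs, had 0.00 ± 0.11. Rpl8, which sits next to the peptidyl transferase centre, had -0.03 ± 0.08, and Rpl7a had -0.11 ± 0.07.

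**Figure D2:**
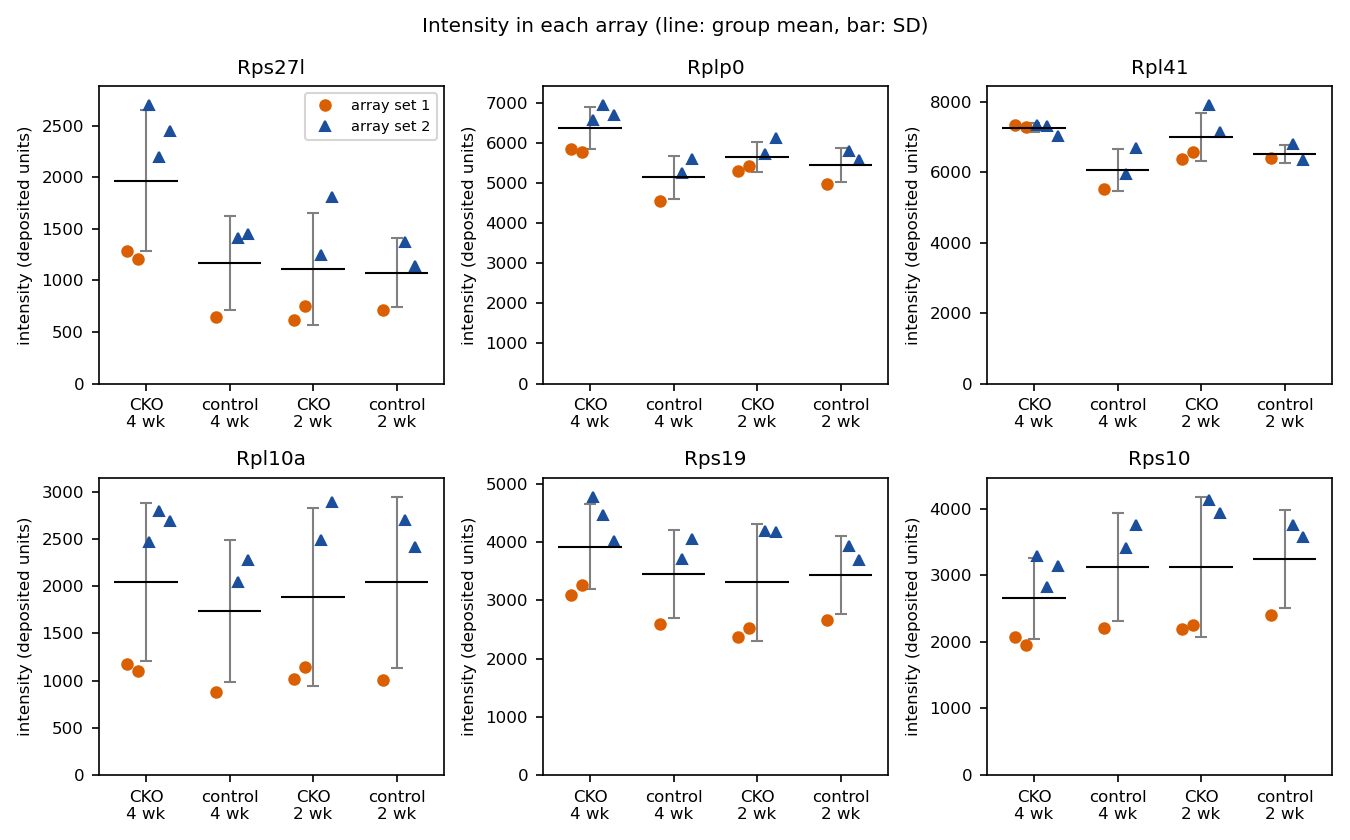
Intensity of 6 ribosomal protein genes in each array by group (circles, array set 1; triangles, array set 2; line and bar, group mean and SD). Rplp0 and Rpl41 separate CKO from control hearts at 4 weeks, and Rps27l, Rpl10a, Rps19 and Rps10 lie at different levels in the 2 array sets.

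Of the 13 tested small-subunit genes, none passed limma's test without the block, and 3 passed with it: Rps19, Rpsa and Rps28. Without the block 1, Rps28, had an unadjusted p under 0.05, against 1133 of all 4950 genes tested. Once sex was added to the block, Rpsa passed and neither Rps19 (0.18, limma adjusted p = 0.0718) nor Rps28 (0.16, limma adjusted p = 0.058) did. Rps19, a factor of small-subunit rRNA maturation that is mutated in human Diamond-Blackfan anaemia, had 3084, 3268, 4777, 4469 and 4026 in CKO hearts at 4 weeks, against 2602, 3704 and 4058 in controls. The groups overlapped, also within set 2, where the lowest CKO array was below the highest control. Its difference was 0.19 ± 0.23, and with the block 0.23 ± 0.07 (limma adjusted p = 0.0244), and 4 of the 15 fits that left out an array lost it (CKO 2 or 3, control 1 or 2, all of 4 weeks). Rpsa, known also as the laminin receptor, had 1972, 1932, 3197, 3039 and 3194 in CKO hearts, against 1804, 2463 and 2771 in controls. The CKO arrays were above the controls within both sets, with a difference of 0.17 ± 0.25, or with the block 0.21 ± 0.06 (limma adjusted p = 0.0178), lost without control 2 of 4 weeks (limma adjusted p = 0.125). Rps28, at the mRNA exit side, had 4782, 4680, 4604, 4543 and 4170 in CKO hearts, against 3993, 3887 and 4364 in controls. The groups overlapped in the lowest CKO array, and the blocked difference of 0.15 ± 0.06 (limma adjusted p = 0.0421) was lost in 9 of the 15 fits. A second bright probe set of Rps28 gave 0.22 ± 0.07 with the block, and a dim one gave -0.67 ± 0.20, with a limma adjusted p of 0.0207 over all probe sets.

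Rps10 lay in the opposite direction. This protein sits near the mRNA entry channel and is marked with ubiquitin when ribosomes collide. It had 2066, 1946, 3289, 2821 and 3135 in CKO hearts at 4 weeks, against 2207, 3403 and 3749 in controls. Within both sets every CKO array was below every control. The difference was -0.23 ± 0.27 without the block and -0.18 ± 0.07 with it (limma adjusted p = 0.0537), which misses the threshold. When quantile normalization was added to the block, Rps10 passed at -0.25 (limma adjusted p = 0.0113), and so did Rpl7a at -0.19 (limma adjusted p = 0.0359), in a fit that called 35.1% of all genes tested. The same fit newly called Rpl7 (0.15, limma adjusted p = 0.0298) and Rps3a1 (0.14, limma adjusted p = 0.0349) upward. It did not call Rpl10a (0.20, limma adjusted p = 0.0545) or Rpsa (0.11, limma adjusted p = 0.214). In total it gave 9 members higher and 2 lower. Rps29, a zinc-binding protein, had -0.21 ± 0.15 with the block, with 0.23 within set 1 and -0.47 within set 2, so its sets disagree in sign. Rps3 of the mRNA entry channel (0.10 ± 0.08), the X-linked Rps4x (0.10 ± 0.05), Rps3a1 (0.13 ± 0.05), Rps27 (0.13 ± 0.13), Rps13 (0.11 ± 0.13), Rps24 (0.04 ± 0.05, on a probe set whose annotated accession Rpl7 shares), Rps7 (0.02 ± 0.07) and Rps18 (0.00 ± 0.07) did not pass with the block.

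Of the 3 related copies, Rps27l was bright enough to test. It is a close relative of Rps27 and in human cells a target of p53. Its probe set carries the suffix for probes chosen under relaxed design rules. Its intensities in CKO hearts at 4 weeks were 1285, 1208, 2696, 2193 and 2451, against 646, 1413 and 1454 in controls. The lowest 2 CKO arrays, both of set 1, were below the set 2 controls, so the groups overlapped as a whole, while within each set they were apart. The difference was 0.75 ± 0.40 without the block (limma adjusted p = 0.293). With the block it was 0.82 ± 0.12, a fold of 1.77 (limma adjusted p = 7.43e-05), the largest of the 25 tested members under that fit. It was 0.93 within set 1 and 0.76 within set 2, and all 15 fits that left out an array kept the call with the block, with differences of 0.77 to 0.87. Its relative Rps27, in contrast, had 376, 348, 254, 319 and 208 in CKO hearts, against 383, 242 and 191 in controls. Mdm2, the p53 ubiquitin ligase that some ribosomal proteins bind, rose by 0.58 ± 0.18 at 4 weeks without the block (limma adjusted p = 0.0477). Any relation between Mdm2 and Rps27l was not tested.

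**Figure D3:**
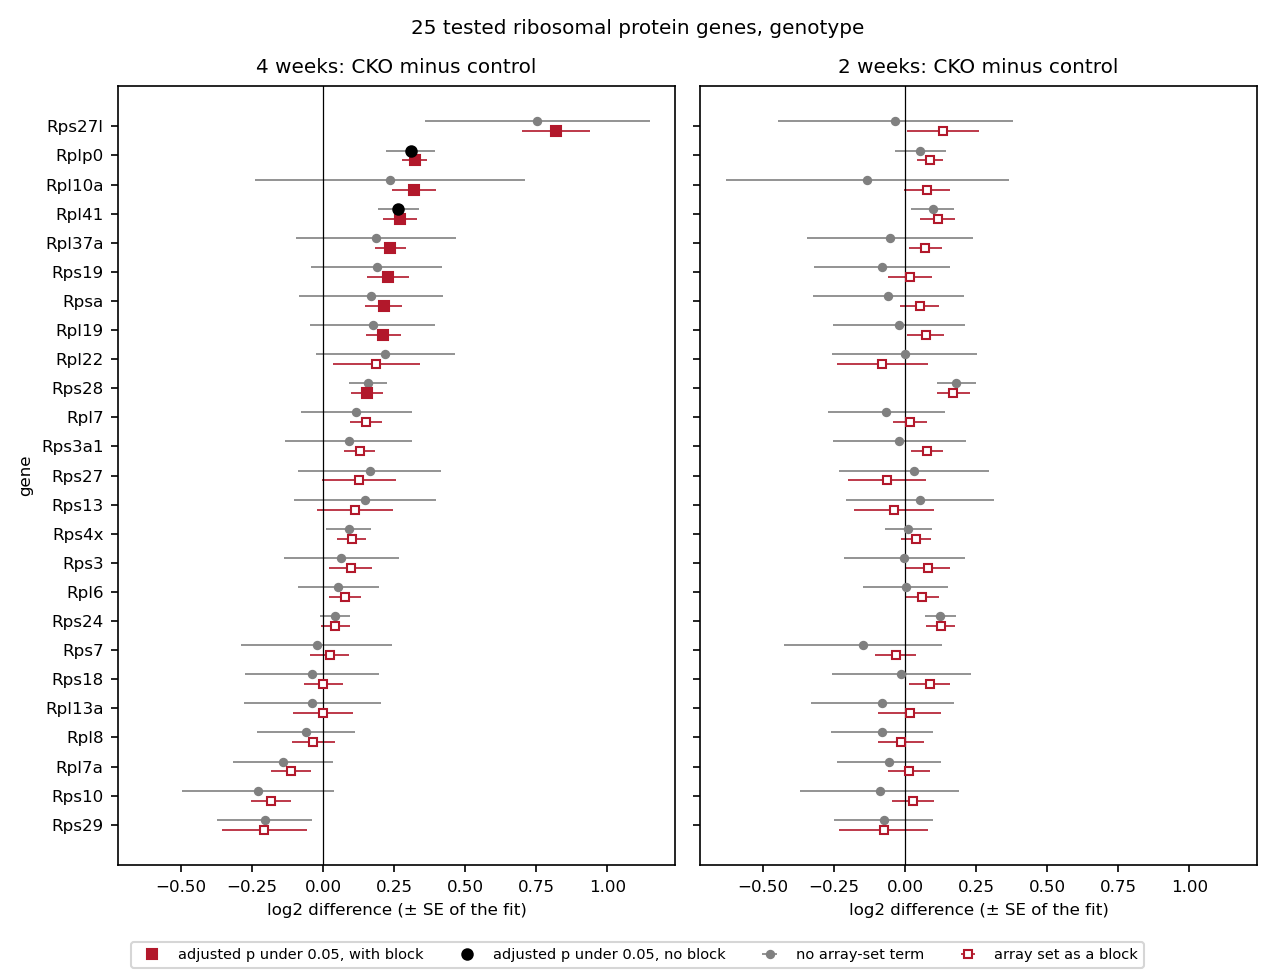
Log2 differences, CKO minus control, at 4 and 2 weeks for the 25 tested genes (grey, no array-set term; red, array set as a block; bars, SE of the fit; filled black or red, limma adjusted p under 0.05). At 4 weeks 2 genes passed without the block and 9 with it, and at 2 weeks none passed.

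The promoters of 4 of these genes are shown because the blocked fit or the age comparison turned on them: Rps27l, Rplp0 and Rpl41 in the upward and Rps10 in the downward direction. They were read from RefSeq promoter windows on GRCm38.p6, where 28 of the 34 members had an entry. Each is 110 bases long, from 80 bases before to 30 after the annotated start. They lie at chr9:66946006-66946115 (plus strand), chr5:115559387-115559496 (plus strand), chr10:128549139-128549248 (minus strand) and chr17:27635215-27635324 (minus strand). Capitals mark a match to CCGGAAG, the core bound by ETS family factors, in Rps27l, Rpl41 and Rps10, and to TATAAA in Rplp0.
Rps27l: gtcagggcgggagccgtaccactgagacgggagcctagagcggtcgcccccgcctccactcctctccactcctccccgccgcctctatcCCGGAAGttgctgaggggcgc
Rplp0: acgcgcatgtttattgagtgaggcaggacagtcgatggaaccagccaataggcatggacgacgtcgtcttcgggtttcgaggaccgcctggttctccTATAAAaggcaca
Rpl41: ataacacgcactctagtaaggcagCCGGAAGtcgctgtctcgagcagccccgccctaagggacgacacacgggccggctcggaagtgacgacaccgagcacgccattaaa
Rps10: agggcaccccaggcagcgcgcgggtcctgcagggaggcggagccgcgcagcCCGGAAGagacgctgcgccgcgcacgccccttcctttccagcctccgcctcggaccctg
The motifs were searched on both strands of the full promoter windows, which are longer than the 110 bases shown. CCGGAAG was present in 32.4% of the 37 member windows and in 8.86% of all 32851 windows. Its 12 member genes were Rpl6, Rpl19, Rpl38, Rpl39, Rpl39l, Rpl41, Rps3a1, Rps7, Rps10, Rps18, Rps27l and Rpsa, which include called and uncalled genes. TCGCGAGA, the core of a palindrome common in housekeeping promoters, was present in 16.2% of member windows (5 genes: Rpl7a, Rpl10a, Rps3a1, Rps19 and Rps28) and in 0.995% of all. TATAAA was in 10.8% of member windows and 13.6% of all, and the E-box CACGTG in 10.8% and 7.15%. None of the 4 motifs contains another, and a match is a description of the sequence.

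A total of 9 members were too dim for the test, being among the dimmest 40% of the genes by mean log2 intensity. They are Rpl32, Rpl35a, Rpl38, Rpl39, Rps14, Rps15, Rps20 and the related copies Rpl39l and Rpl7l1. Rpl39l, the copy of Rpl39 used mainly in the testis, had 168.18, 172.85, 83.09, 44.59 and 50.93 in CKO hearts at 4 weeks, against 131.62, 22.22 and 9.06 in controls. In a fit to all 8251 genes its difference was 1.04 ± 0.61, and with the block 0.94 ± 0.26 (limma adjusted p = 0.0122). Within each set the CKO arrays were above the controls, at intensities where background weighs most. Rpl38, known in the mouse for patterning of the axial skeleton, had 13.85, 20.51, 173.43, 173.23 and 192.27 in CKO hearts, against 77.93, 219.46 and 185.99 in controls, and a blocked difference of -0.64 ± 0.29 (limma adjusted p = 0.126). Rpl39 of the exit tunnel (-0.10 ± 0.21), Rps14 (-0.42 ± 0.24), Rps15 (0.04 ± 0.24), Rps20 (-0.04 ± 0.18), Rpl32 (0.57 ± 0.28), Rpl35a (0.23 ± 0.21) and Rpl7l1 (0.00 ± 0.13) did not pass in that fit either.

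At 2 weeks no ribosomal protein gene passed limma's test, without the block (background 0.0202% of all genes called) or with it (0.0808%). At an unadjusted p under 0.05, 2 of 25 members passed in each fit, Rps28 and Rps24. Of all 4950 genes tested, 51 passed that threshold without the block and 271 with it. The median difference of the members was -0.02 without the block and 0.05 with it, against 0.04 and 0.03 for all genes tested. Rps28 had 4433, 4083, 4343 and 4500 in CKO hearts, against 3761, 3695 and 4035 in controls. It was the only tested member whose groups did not overlap at 2 weeks, 1 of 25, against 2.42% of all genes tested (difference 0.18 ± 0.07, limma adjusted p = 1). Rps24, another gene mutated in human Diamond-Blackfan anaemia, had a difference of 0.12 ± 0.06 (limma adjusted p = 1). Rplp0 had 5728, 6126, 5300 and 5420 in CKO hearts, against 5786, 5569 and 4965 in controls, with a difference of 0.05 ± 0.09. Rps27l had 1251, 1811, 617 and 751 in CKO hearts, against 1374, 1139 and 716 in controls, with a blocked difference of 0.13 ± 0.13. In both genes the 2-week groups overlapped.

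The test of the difference between the 4-week and 2-week effects called no member without the block (background 1.56%). It had 0 of 25 members at an unadjusted p under 0.05, against 474 of all 4950 genes tested. With the block it called 2, Rps27l and Rplp0, both larger at 4 weeks (background 12.4%, of which 7.17% in that direction). For Rps27l the difference of the effects was 0.69 ± 0.17 (limma adjusted p = 0.0177), 1.00 within set 1 and 0.50 within set 2. It was lost without control 1 or without control 3 of 2 weeks (limma adjusted p up to 0.066). For Rplp0 it was 0.24 ± 0.06 (limma adjusted p = 0.024), 0.24 within set 1 and 0.25 within set 2. This call was lost without control 1 or 2 of 4 weeks or control 1 or 3 of 2 weeks (limma adjusted p up to 0.0724). For Rpl41 the difference of the effects was 0.16 ± 0.09 with the block, which missed the threshold (limma adjusted p = 0.277).

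Between 4 and 2 weeks in control hearts, no member passed without the block (background 0.727%) or with it (background 5.92%). Without the block none of the 25 passed an unadjusted p of 0.05, against 329 of all 4950 genes tested. With the block 3 did, Rpl7, Rpl10a and Rps4x, against 944 of all 4950 genes tested. All 3 were lower at 4 weeks, by blocked differences of -0.18 ± 0.06, -0.22 ± 0.09 and -0.14 ± 0.06. Rpl10a had 881, 2050 and 2277 at 4 weeks, against 2699, 2414 and 1007 at 2 weeks, which is a wide overlap across the sets. The members' median difference was -0.06, against -0.03 for all genes tested, and 7 of 25 were higher at 4 weeks. The dim copies Rpl7l1 (-0.46 ± 0.14) and Rpl39l (-0.90 ± 0.29) were lower at 4 weeks with the block, at limma adjusted p of 0.0989 and 0.106.

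Between 4 and 2 weeks in CKO hearts, no member passed limma's test without the block (background 6.57%). An unadjusted p under 0.05 was seen in 2 of 25, Rps27l and Rplp0, against 838 of all 4950 genes tested. With the block 4 were higher and 1 lower at 4 weeks, 20% of the members against a background of 25.1% (14.3% higher and 10.8% lower). Rps27l led with 0.77 ± 0.11 (limma adjusted p = 0.000106), 0.86 within set 1 and 0.69 within set 2, and every fit that left out an array kept it. Rps19 had 0.21 ± 0.07 (limma adjusted p = 0.0279), and 5 of 15 such fits lost it. Rpl19 had 0.16 ± 0.06 (limma adjusted p = 0.0467), and 12 of 15 lost it. Adding sex to the block ended both calls (limma adjusted p = 0.121 for Rps19 and 0.0833 for Rpl19). Rplp0 had 0.15 ± 0.04 (limma adjusted p = 0.0121), lost without CKO 1 of 2 weeks. Rps10 was the gene that fell: it had 2066, 1946, 3289, 2821 and 3135 in CKO hearts at 4 weeks, against 4132, 3929, 2187 and 2245 in CKO hearts at 2 weeks. Within both array sets every 4-week array was below every 2-week array. In this comparison 64.4% of all genes tested did not overlap in set 1 and 44.7% in set 2. The blocked difference of Rps10 was -0.27 ± 0.07 (limma adjusted p = 0.00533), kept in all 15 fits. These arrays also enter the genotype comparisons, so the values are not separate evidence.

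**Figure D4:**
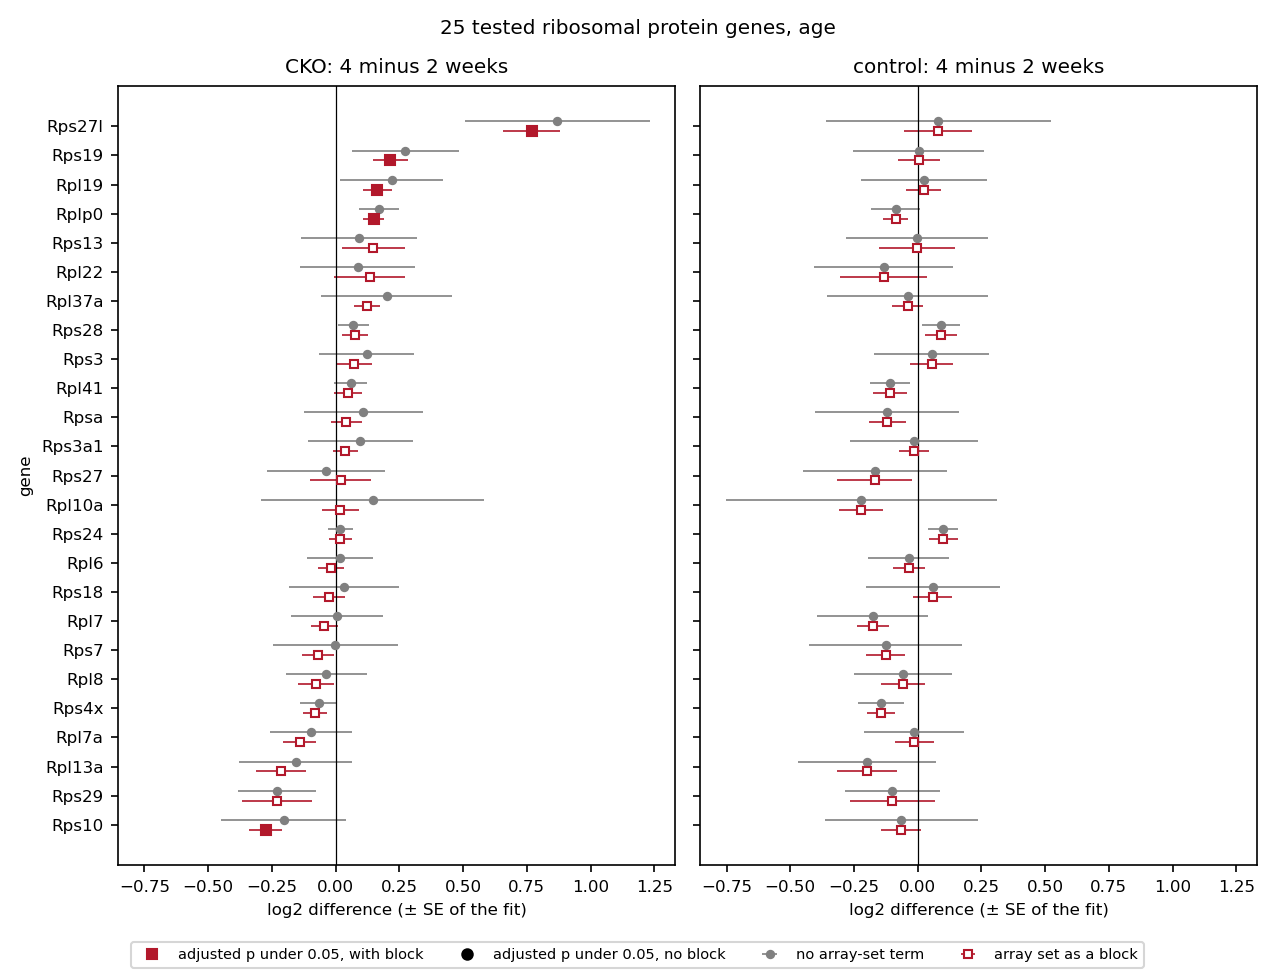
Log2 differences, 4 minus 2 weeks, within CKO and within control hearts for the 25 tested genes (grey, no array-set term; red, array set as a block; bars, SE of the fit; filled red, limma adjusted p under 0.05). With the block, Rps27l, Rps19, Rpl19 and Rplp0 were higher and Rps10 lower in CKO hearts at 4 weeks, and no gene passed in control hearts.

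The probe sets annotated to several ribosomal protein or other symbols were fitted over all 12422 probe sets. Of 39, none was called by limma without the block in any of the 5 comparisons (0 to 2 had an unadjusted p under 0.05). At 4 weeks 6.27% of all probe sets were called without the block, and the median of the 39 was -0.01 against 0.07 for all. With the block 7 were higher and 3 lower in CKO hearts at 4 weeks, where 22.2% of all probe sets were called, with a median of 0.04 against 0.05. In CKO hearts 3 were higher and 3 lower at 4 than at 2 weeks with the block, where 14.3% of all probe sets were called.

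Genes that make or regulate ribosomes were counted beside the members at 4 weeks, against the background of 11.2% of all genes called, or 35.5% with the block. Of 29 tested ribosome biogenesis genes, 1 rose and none fell: Gtpbp4, a GTPase of large-subunit assembly, by 0.48 ± 0.13 (limma adjusted p = 0.0307). In that list Nob1 had no usable probe set, and a synonym put Tbc1d1 in its place, so the list's counts may include Tbc1d1. Eif6, which keeps the new large subunit from joining too early, had 0.50 ± 0.18, and Nsa2 had 0.34 ± 0.17, and both passed with the block, which gave 4 higher and none lower. Of 12 tested genes of RNA polymerase I and its factors, 1 rose, Polr2l, a small subunit shared by all the nuclear RNA polymerases, by 0.62 ± 0.11 (limma adjusted p = 0.00246), and 2 were higher with the block. The other genes with terminal oligopyrimidine mRNAs split, with 2 of 15 higher and 1 lower, or 5 and 2 with the block. Eef1a1, the elongation factor that delivers tRNA, rose by 0.63 ± 0.06 (limma adjusted p = 2.6e-05), and Eif3l, of initiation factor eIF3, by 0.61 ± 0.15 (limma adjusted p = 0.0195). Eif4a2, an initiation helicase, fell by 0.52 ± 0.08 (limma adjusted p = 0.0011). Of 13 tested regulators of ribosomal protein synthesis 1, Mdm2, rose, and the block gave 3 higher and 1 lower. Of 54 tested genes of the mitochondrial ribosome none rose and 2 fell, against 4.61% lower over all genes. Mrpl9 fell by 0.81 ± 0.23 (limma adjusted p = 0.0325) and Mrpl18 by 0.28 ± 0.08 (limma adjusted p = 0.0455). The median difference of the 54 was -0.16, against 0.12 for the cytosolic members and 0.09 for all genes tested. Set 1 alone gave a list median of 0.01, and set 2 alone one of -0.19. The block gave 4 higher and 16 lower. At 2 weeks no gene of these 5 lists passed limma's test. An unadjusted p under 0.05 was seen in 1 of 121, against 51 of all 4950 genes tested.

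Between 4 and 2 weeks in control hearts, 1 gene of these lists passed, Eef1a1, which fell by 0.36 ± 0.07 at 4 weeks (limma adjusted p = 0.0345), where 0.727% of all genes were called. With the block, the oligopyrimidine list had 1 higher and 2 lower and the regulators 1 higher (background 5.92%). In CKO hearts Gtpbp4 (0.58 ± 0.12, limma adjusted p = 0.0109), Polr2l (0.43 ± 0.10, limma adjusted p = 0.022) and Eif4ebp1, the mTOR target that holds back translation initiation (0.48 ± 0.13, limma adjusted p = 0.0423), rose, and Eif4a2 fell by 0.29 ± 0.08 (limma adjusted p = 0.0362), with a background of 6.57%. With the block (background 25.1%), the mitochondrial ribosome had 3 higher and 14 lower and the oligopyrimidine list 3 higher and 2 lower. The regulators then had 4 higher and 1 lower, RNA polymerase I 3 higher and biogenesis 2 higher.

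The make-up of the samples moved with genotype at 4 weeks. The summed intensity of 11 heart muscle markers was 70297 to 75400 in CKO hearts and 84929 to 89853 in controls, and 6 of 11 tested markers fell. The summed intensity of 15 fibroblast and matrix markers was 30473 to 41619 in CKO hearts and 13910 to 16044 in controls, and 12 of 14 tested rose. The smooth muscle and pericyte sum was 9666 to 13646 in CKO hearts and 7842 to 8667 in controls, and 2 of 8 tested rose. It was also apart at 2 weeks, at 10358 to 12272 in CKO hearts and 8555 to 9680 in controls, with 0 of 8 called by limma (1 at an unadjusted p under 0.05). The skeletal muscle sum was 8612 to 9904 in CKO hearts and 3563 to 5790 in controls, 1 of 5 tested rose, and Myh1 was at the lowest deposited value on some array. The proliferating-cell sum was 2973 to 4222 in CKO hearts and 1952 to 3268 in controls, with 0 of 4 tested called by limma without the block (1 at an unadjusted p under 0.05) and 3 higher with it, and Mcm6 at the lowest value on some array. The macrophage sum was 3159 to 6116 in CKO hearts and 3025 to 4776 in controls, with 0 of 9 called by limma (0 at an unadjusted p under 0.05), and the endothelial, lymphocyte, erythroid, lung and liver sums overlapped when the sets were pooled. Within sets they did not all overlap. The lymphocyte sum was 2095 to 2236 in CKO hearts and 1842 in the control of set 1, and 1358 to 1925 in CKO hearts and 1304 to 1330 in controls of set 2. The liver sum was 1527 to 1584 in CKO hearts and 1385 in the control of set 1, and 818 to 1094 in CKO hearts and 741 to 797 in controls of set 2. The erythroid sum was 12708 to 15046 in CKO hearts and 7535 in the control of set 1, and it overlapped in set 2. The endothelial sum was higher in CKO hearts in set 1 alone, and the lung sum was higher in CKO hearts in set 1 and lower in set 2. Make-up also moved with age. In control hearts the fibroblast and matrix sum was 13910 to 16044 at 4 weeks and 19500 to 28574 at 2 weeks. In CKO hearts the heart muscle sum was 70297 to 75400 at 4 weeks and 81781 to 86704.5 at 2 weeks. The heart muscle sum in controls and the fibroblast sum in CKO hearts overlapped between the ages. The part of these shifts, by genotype or by age, in the values of the ribosomal protein genes was not tested. In bulk RNA, fewer cells of a type and less RNA per cell cannot be told apart.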

How the data were processed

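The data are 15 one-colour Affymetrix-type arrays of mouse heart RNA, biotin-labelled per the labels' protocols. The authors deposited linear intensities, with a single value for each probe set on each array and a floor of 0.95 (background correction, scaling and software not given in the sources used here). Array medians ran from 173.7 to 216.8, and those of the 2 array sets did not overlap. Their ratio of 1.248 was just under the limit above which quantile normalization would have been used, so the deposited scaling was kept.

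Of 12422 probe sets, the platform annotation named 10833 by 1 symbol and 396 by several, and left 1193 unnamed. Gene IDs matched 10817 of the named ones to current symbols in a RefSeq table of GRCm38.p6. Each of 8251 genes kept its brightest single-symbol probe set, and the dimmest 40% were left out, which left 4950 genes. Values were used as log2(intensity + 16), so differences of dim genes are understated. The model (limma 3.58.1, R 4.3.3) had a mean for each group, all 15 arrays and a trend of the spread with intensity; its moderated tests were two-sided, and p-values were adjusted by Benjamini-Hochberg across the 4950 genes. A gene is called at an adjusted p under 0.05. Errors are standard errors of the fit. The fit without the block was tested on simulated data that held no array-set difference. The blocked fit was not tested in this way.

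The array sets were found from the correlations of all probe sets. Fits that took the set as a block or used a single set, with sex inferred from Xist and Uty, with quantile or median scaling, with other filters and pseudocounts, and with each array left out were run beside it. The members, the 5 pathway lists and the 11 marker lists were chosen with earlier results of these data known. The genes named are a fixed list of well-known members, the members with the smallest p in each comparison, all dim members, and the genes of each pathway list with the smallest p. For arrays, their number limits the precision. No 2 arrays repeated each other: at most 0.0322% of probe sets above the floor had the same value.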

Additional observations from a re-analysis of the deposited data

Results flagged for a closer look

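A total of 4 single arrays stood apart from their group among 68 tests of 1 member in a CKO group. About 1 in 20 such groups is marked by chance, or 3.4 here. Rpl32 had 418.29 in CKO array 3 at 4 weeks, against 149.75 to 199.61 in the other 4 arrays. Rpl32 had 129.79 in CKO array 1 at 2 weeks, against 215.82 to 230.32 in the others. Rps14 had 3.19 in the same array, against 13.43 to 15.94. Both genes are dim. Rpl41 had 7036.26 in CKO array 5 at 4 weeks, against 7269.86 to 7337.86 in the others, and this lowest CKO value was still above every control array.

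For 2 of the 25 tested genes the CKO effect differed between the ages by limma's interaction test, blocked on array set. That fit called 12.4% of all genes tested (7.17% larger at 4 weeks), so the share is not above the background. The effect at 4 weeks minus that at 2 weeks was 0.688 for Rps27l (limma adjusted p = 0.0177) and 0.236 for Rplp0 (limma adjusted p = 0.024), on the log2 scale. Without the block limma's adjusted p was 0.861 for Rps27l and 0.555 for Rplp0. With the block, leaving out 1 array lost the call in 2 of 15 fits for Rps27l and 4 of 15 for Rplp0.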

How the results depend on the processing

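Shares in brackets, where given, are of all genes tested that the same fit called. A count without a share has no background beside it, so it is no result about the members. At 4 weeks the count of called ribosomal protein genes was 2 as reported (11.2%). It was 0 with the arrays scaled to 1 median (7.7%), 1 with plain probe sets only and 1 with only the groups of the comparison. When blocked on array set it was 9 (35.5%), and within set 2 it was 7 (29%). It was 11 with the block and quantile normalization (35.1%), 7 with blocks for set and inferred sex (31.6%), and 0 with a replicate block. Leaving out 1 array gave 0 to 2 calls without the block and 6 to 11 with it. Correlations of same-numbered residuals ran from -0.819 to 0.889. The array set was not removed from these residuals, so they cannot show whether the sample numbers pair the arrays. The difference of the effects, 0 as reported (1.56%), gave 2 with the set as a block (12.4%). It gave 2 with the block and quantile normalization (13.1%), 2 with blocks for set and sex (9.09%), and 1 with array weights. With the block, leaving out 1 array gave 0 to 2. Age in control hearts, 0 as reported (0.727%), gave 3 with the block and quantile normalization (5.94%). Age in CKO hearts, 0 as reported (6.57%), gave 5 with the block (25.1%) and 3 within set 2 (18.3%). It gave 4 with the block and quantile normalization (26.1%), 3 with blocks for set and sex (22.6%), and 4 with array weights. With the block, leaving out 1 array gave 3 to 5. Set 1 alone held a single control array at each age, so its counts are left out. The other counts stayed within 1.5 times those reported. Over single genes, 3735 of 3845 values kept their sign and side of the threshold, whatever their size, or changed sign by no more than the SE of the reported difference. A further 63 passed the threshold newly and 14 no longer passed. The other 33, uncalled in both fits, changed sign by more than that SE. No value called in either fit changed sign. The causes were not tested. The replicate block left the calls at 2 weeks and for age at 0. Signal over background limits the 9 dim members.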
